A study of Parasteatoda tepidariorum with 2 samples.

Results

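Gastrulation in the common house spider *Parasteatoda tepidariorum* separates endoderm, mesoderm and ectoderm from the cells that stay outside the embryo proper. Endoderm cells lie between the surface layer and the yolk, and extraembryonic cells cover the yolk beyond the edge of the germ disc and, later, of the germ band. The 5 genes described here are the ones the study used to mark these populations at stage 7, and they are 5 of the 20315 genes held by at least 1 filtered matrix of the series. They were taken by gene ID from the study's text, and all 5 were present in each of the 3 filtered matrices. *Pt-gata1* (LOC107448880) encodes a zinc-finger transcription factor of the GATA family, a family known from insects, nematodes and vertebrates for roles in gut, extraembryonic and blood lineages. *Pt-tlx* (LOC107441150) encodes a homeobox transcription factor of the T-cell leukemia homeobox class. *At_eW_012_A08* (LOC107451427), LOC107436131 and LOC107439300 are protein-coding genes used as markers only, and no function is given for them here. LOC107439300 overlaps the non-coding gene LOC122271405 in the RefSeq annotation of CAS_Ptep_4.0, and that neighbour had 2 molecules in all stage-7 nuclei. Reads of the pair could not be told apart by strand here.

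Wild-type embryos were used without any treatment. The stage-7_nucleus library came from the nuclei of 20 embryos and the stage-7_cell library from the dissociated cells of 15 embryos, and each was 1 library of pooled embryos. The late stage-5_nucleus matrix, from an earlier study, was deposited with the series and stood for 1 library as well. With 1 library per condition no test between conditions was possible, so each level is given per 10000 molecules and each share in percent of barcodes. The ranges in parentheses are exact 95% intervals, Poisson for levels and Clopper-Pearson for shares, and cover counting error only. For levels they leave out the spread between the barcodes of a group. Level intervals that do not overlap therefore do not show that groups differ beyond that spread. A lower level of a gene in a whole library can mean fewer cells of a type or less RNA per cell, and the 2 cannot be told apart from the library level.

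The filtered matrices held 4820 late stage-5 nuclei (median 5413 molecules), 6239 stage-7 nuclei (median 10452) and 865 stage-7 cells (median 9159). Between 5 and 33 barcode sequences were shared by any pair of libraries. Because depth differed, shares compared between libraries were also computed after each barcode was thinned to 3000 molecules, which left out 223 late stage-5 nuclei and no stage-7 nucleus or cell. Cell states were rebuilt by clustering each library without the 5 genes, so that none of them helped to form the clusters described below. These clusters carry their own numbers, not those of the study, and apart from the ectoderm no cell type is given to them.

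*At_eW_012_A08* and *Pt-gata1* were the abundant genes of the set and *Pt-tlx* the rarest. In late stage-5 nuclei, stage-7 nuclei and stage-7 cells, the level of *At_eW_012_A08* was 3.89 (3.82 to 3.97), 2.28 (2.24 to 2.31) and 0.218 (0.188 to 0.251) molecules per 10000. That of *Pt-gata1* was 3.43 (3.36 to 3.50), 3.12 (3.08 to 3.17) and 0.657 (0.604 to 0.714). Both were thus highest at late stage 5 and lowest in cells. LOC107436131 followed the same order, with 0.329 (0.308 to 0.352), 0.181 (0.171 to 0.191) and 0.0625 (0.0470 to 0.0815). LOC107439300 had another order, with 0.0474 (0.0395 to 0.0564) at late stage 5, 0.307 (0.294 to 0.321) in stage-7 nuclei and 0.128 (0.106 to 0.155) in stage-7 cells. *Pt-tlx* had 37 molecules in all late stage-5 nuclei, 888 in stage-7 nuclei and 6 in stage-7 cells, or 0.0138 (0.00972 to 0.0190), 0.129 (0.121 to 0.138) and 0.00694 (0.00255 to 0.0151) molecules per 10000.

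**Figure D1:**
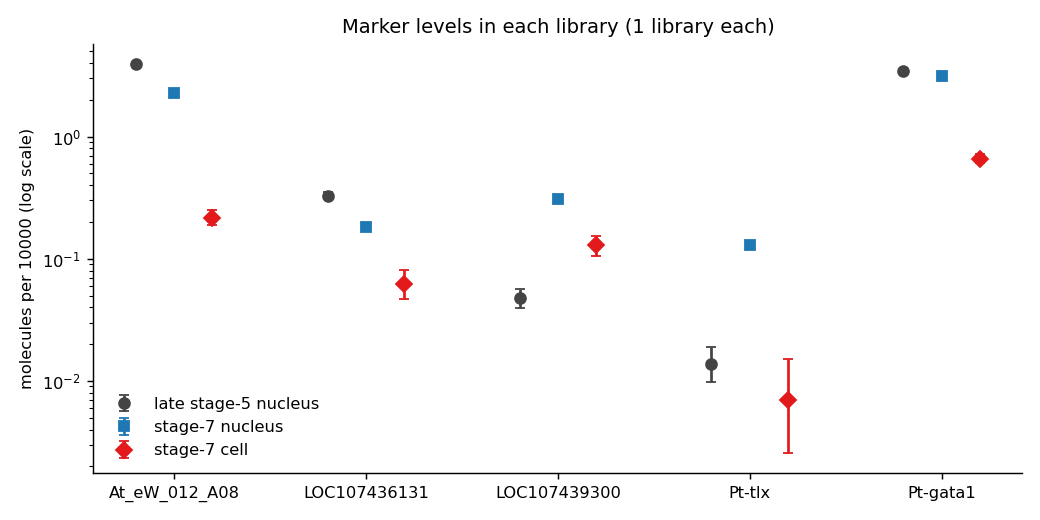
Level of each of the 5 markers in the 3 libraries, in molecules per 10000 on a log axis; bars are exact 95% Poisson intervals and each point is 1 library. LOC107439300 and *Pt-tlx* stood higher in stage-7 nuclei than in late stage-5 nuclei, and all 5 stood lower in cells than in nuclei of stage 7. Intronic reads were counted for nuclei only.

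Most molecules of each gene came from few nuclei. The 311 stage-7 nuclei (5% of the library) with the most molecules of a gene held 69.0% of the molecules of *At_eW_012_A08*, 76.0% of LOC107436131, 84.7% of LOC107439300 and 61.9% of *Pt-gata1*. *Pt-tlx* was seen in only 206 nuclei (3.30%, 2.87 to 3.78). The richest nucleus of each gene in this library had 124 molecules of *At_eW_012_A08*, 16 of LOC107436131, 18 of LOC107439300, 41 of *Pt-tlx* and 152 of *Pt-gata1*. Detection of a gene by a single molecule was far wider than these rich nuclei, since *At_eW_012_A08* was seen in 44.5% (43.3 to 45.8) of the nuclei and reached 5 molecules in 452 of them.

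The comparison of late stage 5 with stage 7 asks how the markers moved as the germ disc became a germ band. LOC107439300 was 6.48-fold (5.42 to 7.82) and *Pt-tlx* 9.36-fold (6.74 to 13.4) higher in stage-7 than in late stage-5 nuclei. These were 2 of the 5 genes at 2-fold or more, against 9.66% of the 14515 genes with at least 50 molecules over both libraries. None of the 5 was 2-fold lower, against 32.7% of all genes. The median gene stood at a ratio of 0.638 (−0.65 on the log2 scale), and relative to that shift LOC107439300 was 10.2 times and *Pt-tlx* 14.7 times above the median gene. The ratios of *At_eW_012_A08* (0.585, 0.571 to 0.600) and LOC107436131 (0.550, 0.504 to 0.601) were below 1 and lay at 0.917 and 0.863 of the median gene's. *Pt-gata1* had a ratio of 0.910 (0.888 to 0.933), which was 1.43 times the median gene's. Stage cannot be told apart from library here, since each stage was 1 library made in a separate study.

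Shares of nuclei moved with depth. *At_eW_012_A08* was detected in 34.6% (33.2 to 35.9) of late stage-5 and 44.5% (43.3 to 45.8) of stage-7 nuclei, but after thinning in 24.2% (22.98 to 25.5) and 21.3% (20.3 to 22.4). The share of *Pt-gata1* was 28.2% (26.9 to 29.4) and 38.8% (37.6 to 40.0) before thinning, and 22.3% (21.1 to 23.5) and 22.6% (21.5 to 23.6) after it, where the intervals overlapped. Thinned shares of LOC107439300 were 1.09% (0.808 to 1.43) and 4.79% (4.28 to 5.35), and those of *Pt-tlx* 0.392% (0.232 to 0.618) and 1.59% (1.29 to 1.93), so both remained higher at stage 7. LOC107436131 was at 4.26% (3.70 to 4.89) and 3.89% (3.43 to 4.40) after thinning, with overlapping intervals.

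At stage 7, the 26 clusters of nuclei separated the markers into 3 clusters with different combinations. Cluster 12 (237 nuclei), led by LOC107444057 at 19.6 molecules per 10000 and by LOC107448002 and LOC107446851, had the highest levels of *At_eW_012_A08* and LOC107436131. Cluster 19 (166 nuclei), led by LOC107446091 at 11.9 and by LOC107449299 and LOC107446167, had high *At_eW_012_A08* with the highest LOC107439300. Cluster 16 (199 nuclei), led by LOC107441755, LOC107454257 and LOC107452295 at 1.90, 1.27 and 1.15, had the highest *Pt-gata1* and *Pt-tlx*. These 3 clusters were 9.65% of the nuclei and held 78.8% of the molecules of *At_eW_012_A08*, 68.8% of LOC107436131, 85.5% of LOC107439300 and 77.8% of *Pt-tlx*. *Pt-gata1* was the exception, with 38.7% of its molecules in the 3 clusters and 44.5% in the ectodermal clusters described below, or 38.0% there without the nuclei of cluster 23. No nucleus of the 3 clusters was among those the study placed on its ectodermal axis.

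*At_eW_012_A08* was high in 3 clusters. Its level was 23.03 (22.5 to 23.6) in cluster 12, 19.9 (19.3 to 20.5) in cluster 19 and 2.76 (2.55 to 2.98) in cluster 16, with no overlap of these intervals. In cluster 12 it was present in 236 of the 237 nuclei with a median of 27 molecules, and in cluster 19 in all 166 with a median of 23. The next cluster, 15, was at 0.818 (0.698 to 0.954), and from there to the lowest, cluster 24 at 0.284 (0.159 to 0.468), levels of neighbouring clusters overlapped. Only cluster 15, among these others, had a nucleus with 24 molecules of the gene.

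LOC107436131 was more restricted. Its level in cluster 12 was 2.33 (2.16 to 2.5), with detection in 204 of the 237 nuclei and a median of 3 molecules. Cluster 15 followed at 0.427 (0.341 to 0.528) and cluster 19 at 0.424 (0.342 to 0.520), with overlapping intervals, and cluster 16 was at 0.0991 (0.0628 to 0.149). Of the 61 nuclei with 5 molecules or more, 58 were in cluster 12.

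LOC107439300 graded across the 3 clusters. The level was 5.29 (4.99 to 5.60) in cluster 19, 1.57 (1.41 to 1.74) in cluster 16 and 0.882 (0.782 to 0.992) in cluster 12. It was detected in 163 of 166, 106 of 199 and 87 of 237 nuclei of these clusters. In cluster 12 a minority carried it at high levels, with a 90th percentile of 4 molecules and a highest count of 18 against a median of 0.

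*Pt-tlx* was highest in cluster 16, at 2.88 (2.67 to 3.11), and next in the ectodermal cluster 9, at 0.318 (0.255 to 0.392). In cluster 16 it was detected in 75 of the 199 nuclei (37.7%, 30.9 to 44.8), with a median of 0 and a highest count of 41. Clustering with another random seed, again without the 5 genes, divided cluster 16 into a cluster of 122 nuclei and one of 76 nuclei. In the smaller one *Pt-tlx* was detected in 66 of 76 nuclei at 7.99 molecules per 10000, and held 73.8% of all its molecules, while in the larger one 9 of 122 nuclei carried it at 0.0947. *Pt-gata1* was high in both, at 34.8 (33.5 to 36.1) in the smaller and 31.4 (30.6 to 32.4) in the larger, and these intervals did not overlap. *At_eW_012_A08* was at 1.89 in the smaller and 3.27 in the larger, and LOC107439300 at 1.26 and 1.77. The genes other than the 5 markers thus also separated the *Pt-tlx*-rich nuclei, but whether they formed a cluster of their own rested on the random seed.

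**Figure D2:**
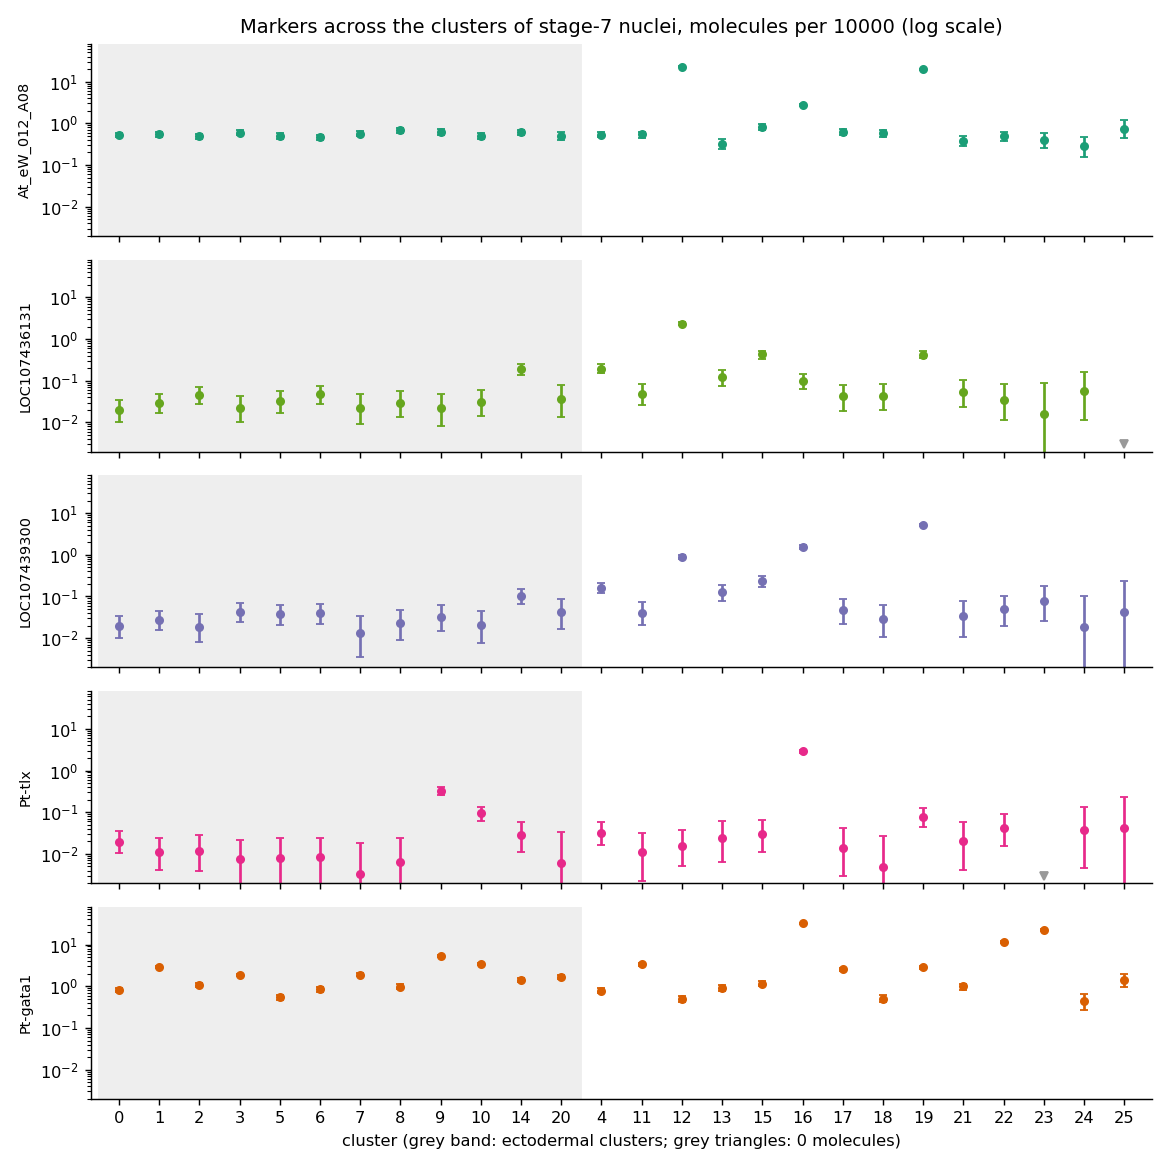
Level of each marker (molecules per 10000, log axis, exact 95% Poisson intervals) in the 26 clusters of stage-7 nuclei, made without the markers; the grey band covers clusters with at least 10% axis nuclei. *At_eW_012_A08* stood at 23.03, 19.9 and 2.76 in clusters 12, 19 and 16 and between 0.284 and 0.818 in the other clusters, whereas *Pt-gata1* varied over clusters inside and outside the band.

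*Pt-gata1* was high outside these clusters too. After cluster 16, at 32.4 (31.7 to 33.1), came cluster 23 (56 nuclei) at 22.0 (20.8 to 23.2) and cluster 22 (126 nuclei) at 11.4 (10.8 to 11.9). Cluster 23 was led by LOC107457082, LOC107451108 and LOC107457078, and cluster 22 by LOC107457003, which stood on the list of mesoderm genes, and by LOC107441197 and LOC107440074. The ectodermal clusters 9 and 10, near the posterior end of the axis, followed at 5.42 (5.15 to 5.71) and 3.47 (3.25 to 3.69). In cluster 9 the gene was absent from the median nucleus yet reached 122 molecules in 1 nucleus. *At_eW_012_A08* stayed at 0.39 in cluster 23 and 0.49 in cluster 22, so *Pt-gata1* without it was the pattern there.

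*Pt-noggin-D* (LOC107444265), which encodes a secreted antagonist of BMP signals and which the study used for extraembryonic cells at late stage 5, was at 4.08 in cluster 16 and 2.52 in cluster 23, the same 2 clusters that were highest in *Pt-gata1*. LOC107443634, an endoderm marker of late stage 5 in the study, was at 28.9 in cluster 16, 23.3 in cluster 19 and 6.37 in cluster 12 at stage 7. Its highest level was thus in another cluster than that of *At_eW_012_A08* or LOC107436131.

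Combinations per nucleus were counted next. Of the 6239 stage-7 nuclei, 1965 had none of the 5 genes, 2572 had 1, 1164 had 2, 414 had 3, 118 had 4 and 6 had all 5. The commonest sets were *At_eW_012_A08* alone in 1305 nuclei, *Pt-gata1* alone in 1066 and the pair of them in 711. Requiring 2 molecules of a gene left 710 nuclei with at least 2 of the genes (11.4%) in place of 1702 (27.3%, 26.2 to 28.4), and thinning left 670 (10.7%).

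*Pt-tlx* was mostly found together with *Pt-gata1*. Of the 206 nuclei with *Pt-tlx*, 148 (71.8%, 65.2 to 77.9) also had *Pt-gata1*, against 37.6% of the nuclei without *Pt-tlx*. At 2 molecules or more of each, the share was 96.9%. In the other direction, only 6.12% (5.20 to 7.15) of the 2419 nuclei with *Pt-gata1* had *Pt-tlx*. The pair was not limited to cluster 16, for in the ectodermal clusters 51 of 88 nuclei with *Pt-tlx* had *Pt-gata1* (58.0%, 47.0 to 68.4) against 32.1% (30.7 to 33.6) of those without it. None of these nuclei with *Pt-tlx* was in cluster 23.

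*At_eW_012_A08* accompanied LOC107439300 and LOC107436131. It was present in 455 of 631 nuclei with LOC107439300 (72.1%, 68.4 to 75.6) against 41.4% of those without. For LOC107436131 it was present in 399 of 610 nuclei (65.4%, 61.5 to 69.2) against 42.3%. Nuclei with these 2 genes were deeper, with medians of 12651 and 12511 molecules against 10253 and 10255 without. After thinning the shares were 72.6% (67.1 to 77.6) and 60.5% (54.0 to 66.7), against 21.3% of all nuclei. Conversely, 16.4% (15.0 to 17.8) of the 2778 nuclei with *At_eW_012_A08* had LOC107439300 and 14.4% (13.1 to 15.7) had LOC107436131. LOC107436131 and LOC107439300 shared 174 nuclei, 28.5% (25.0 to 32.3) of those with the first and 27.6% (24.1 to 31.2) of those with the second.

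Within cluster 12, LOC107439300 did not sort with LOC107436131: it was present in 76 of 204 nuclei with LOC107436131 (37.3%, 30.6 to 44.3) and in 33.3% (18.0 to 51.8) of the 33 without. Within cluster 16, *At_eW_012_A08* and LOC107439300 did sort together, since 89 of 106 nuclei with LOC107439300 had *At_eW_012_A08* (84.0%, 75.6 to 90.4) against 53.8% (43.1 to 64.2) of the other 93. *Pt-tlx* and LOC107439300 shared 45 nuclei there, 60.0% (48.0 to 71.1) of the nuclei with *Pt-tlx*, against 49.2% (40.1 to 58.3) of those without, and these intervals overlapped. In the ectodermal clusters, *At_eW_012_A08* was detected in 38.8% (31.3 to 46.7) of 165 nuclei with LOC107436131 and in 40.5% (38.9 to 42.01) of the rest, and its detection there followed no other marker beyond the intervals.

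**Figure D3:**
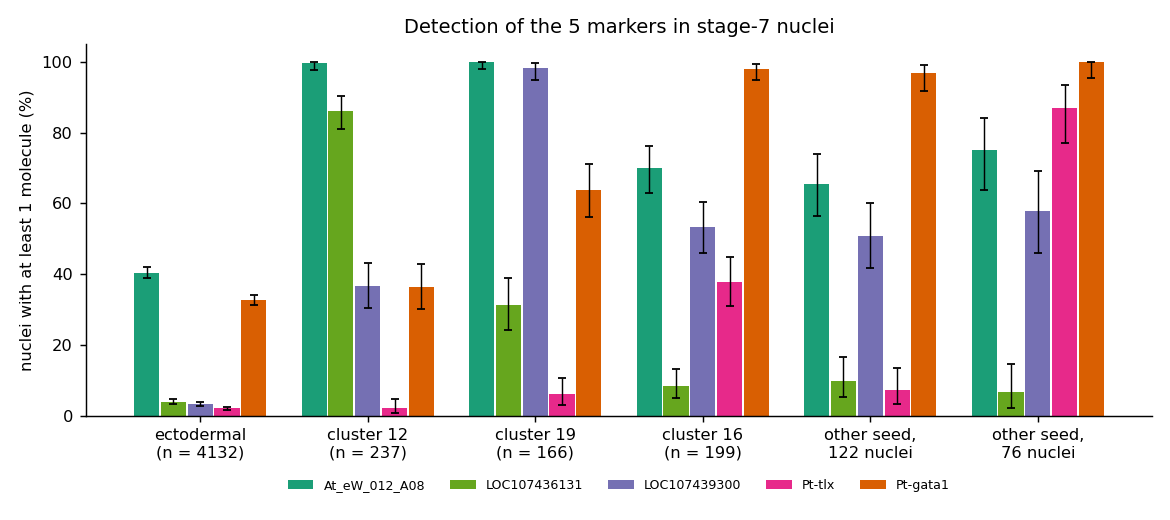
Share of stage-7 nuclei with at least 1 molecule of each marker (percent, exact 95% Clopper-Pearson intervals) in the ectodermal clusters, in clusters 12, 19 and 16, and in the 2 clusters into which another random seed divided cluster 16. *Pt-tlx* was detected in 66 of the 76 nuclei of the smaller cluster and in 9 of the 122 nuclei of the larger one.

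The ectoderm gave the background against which these markers were read. Ectodermal nuclei of stage 7 were the 4132 nuclei (66.2%) of 5 clusters made at a lower resolution, each with at least 10% of nuclei on the study's axis. They included nuclei of clusters that lay below that limit at the higher resolution, among them all 56 of cluster 23, all 127 of cluster 21 and 6 of cluster 16, and 3876 nuclei were ectodermal at both resolutions. *At_eW_012_A08* was detected in 40.4% (38.9 to 41.9) of them, at 0.537 (0.516 to 0.558) molecules per 10000, and after thinning in 15.2%. Its level was 0.477 to 0.577 over the 5 clusters. LOC107436131 was detected in 3.99% (3.42 to 4.64), LOC107439300 in 3.27% (2.75 to 3.86) and *Pt-tlx* in 2.13% (1.71 to 2.62). At least 2 molecules were found in 13.4% of the ectodermal nuclei for *At_eW_012_A08*, 0.387% for LOC107436131, 0.315% for LOC107439300 and 0.629% for *Pt-tlx*. The median depth was 10495 molecules in these nuclei and 10387 in the remaining 2107, where *At_eW_012_A08* was detected in 52.6% (50.5 to 54.8). Single molecules of *At_eW_012_A08* therefore did not separate the ectoderm from the rest, and of 452 nuclei with 5 molecules or more 13 were ectodermal.

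The ectodermal levels of *Pt-tlx* and *Pt-gata1* were not even. Over the 5 ectodermal clusters *Pt-tlx* ranged from 0.00769 to 0.121 and *Pt-gata1* from 0.677 to 4.13 molecules per 10000. The highest value of *Pt-gata1* was that of the cluster with all nuclei of cluster 23, and without them it was 2.60 (2.48 to 2.72), so that the range ended at 3.34 (3.23 to 3.46). *Pt-gata1* was detected in 32.6% (31.2 to 34.1) of ectodermal nuclei, and in 31.6% (30.1 to 33.1) of those ectodermal at both resolutions. The other 3 genes had a smaller ratio of highest to lowest level. They spanned 0.477 to 0.577 for *At_eW_012_A08*, 0.0245 to 0.0544 for LOC107436131 and 0.0220 to 0.0379 for LOC107439300. LOC107436131 was not even either, since the intervals of its highest (0.0417 to 0.0697) and lowest (0.0157 to 0.0365) cluster did not overlap.

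Further clusters carried the 2 scarcer markers LOC107436131 and LOC107439300 above their ectodermal levels. Clusters 4, 13 and 15 had medians of 8368, 6640 and 8643 molecules, against 10452 in the library. No nucleus of them was on the axis. The study excluded its low-count cluster of stage-7 nuclei as a possible pseudocluster. Whether these clusters belong to it was not tested. LOC107436131 was at 0.195 (0.151 to 0.248), 0.120 (0.0734 to 0.186) and 0.427 in them, and LOC107439300 at 0.16 (0.120 to 0.208), 0.126 (0.0781 to 0.193) and 0.231 (0.169 to 0.308). These compare with 0.0398 (0.0342 to 0.0460) and 0.0328 (0.0278 to 0.0385) in the ectodermal clusters. *At_eW_012_A08* was at 0.536 (0.460 to 0.619) in cluster 4, the interval of which included its ectodermal level of 0.537. It was below that level in cluster 13, at 0.325 (0.244 to 0.424), and above it in cluster 15, at 0.818 (0.698 to 0.954). There were 36.5, 37.0 and 52.1 molecules of LOC107436131 per 100 of *At_eW_012_A08* in clusters 4, 13 and 15, against 7.42 in the ectodermal clusters and 10.1 in cluster 12, so the 2 genes were not in 1 ratio throughout the library. Cluster 14, with 14.4% of its 208 nuclei on the axis, had LOC107436131 at 0.187 (0.138 to 0.249), LOC107439300 at 0.104 (0.0676 to 0.152) and a median of 11697 molecules.

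Along the axis of the study, which runs from position 0 at the anterior end to 80 at the posterior end, *Pt-tlx* and *Pt-gata1* of stage 7 were both highest in the window at the posterior end. In the 187 nuclei from position 70 to 80, *Pt-tlx* was at 0.434 (0.349 to 0.534) with 89 of its 98 axis molecules. In the other 7 windows of 10 positions it ranged from 0 to 0.015. *Pt-gata1* was at 8.04 (7.65 to 8.44) in the last window and in 64.7% of its nuclei, and at 0.408 to 1.59 in the others. Between positions 30 and 50 its level was 1.59 (1.4 to 1.80) and 1.45 (1.30 to 1.62), above the 0.483 (0.403 to 0.573) of the first window. The shares of nuclei with the gene were 21.9% (15.7 to 29.3), 22.8% (17.1 to 29.4) and 24.8% (19.1 to 31.1) in these windows, so the higher level came with no higher share of nuclei beyond the intervals. Median depth was 10538 molecules in the last window and 12310 in the first.

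At late stage 5 *Pt-gata1* was highest at the other end of the axis, which at that stage also holds presumptive mesoderm. Its level was 4.90 (4.49 to 5.34) in the 193 nuclei of the first window, at the rim of the germ disc, and 2.34 (1.97 to 2.78) in the next, against 0.456 (0.330 to 0.614) in the last. In cluster 8 (288 nuclei) *Pt-twist*, a mesoderm gene, was at 1.22. Of its nuclei 69.4% were on the axis, at a median position of 5.01, so the first window holds many of them. The 2 axes therefore do not compare ectoderm with ectoderm at this end. *Pt-tlx* had 6 molecules over the whole axis at late stage 5. *At_eW_012_A08* was at 0.758 to 1.09 in the late stage-5 windows and 0.433 to 0.640 in those of stage 7, and within a stage the intervals of all windows overlapped.

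**Figure D4:**
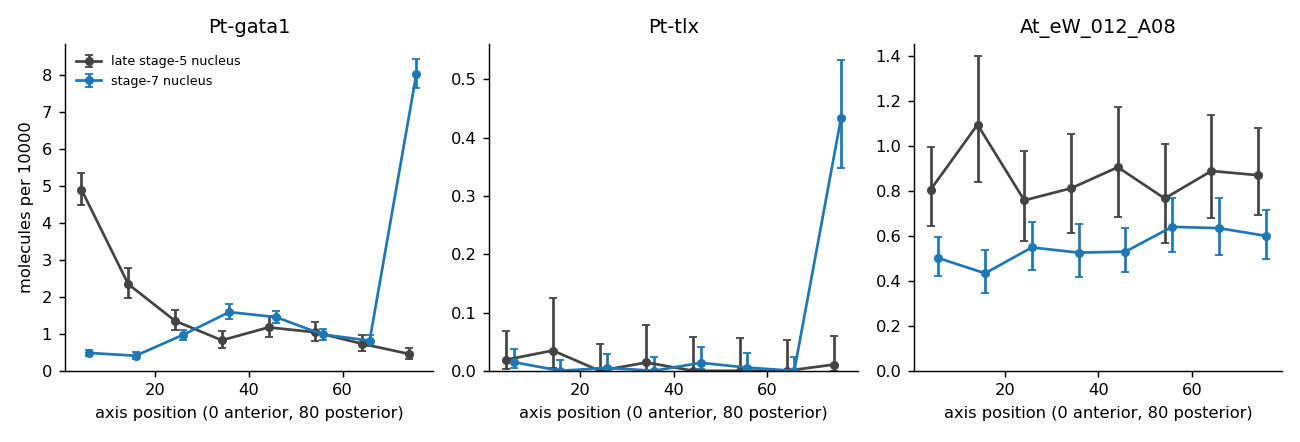
Level of *Pt-gata1*, *Pt-tlx* and *At_eW_012_A08* (molecules per 10000, exact 95% Poisson intervals, axis from 0) in nuclei grouped into windows of 10 positions of the study's axis, for late stage 5 and stage 7. *Pt-gata1* was highest at the anterior end (4.90) at late stage 5 and at the posterior end (8.04) at stage 7, whereas *At_eW_012_A08* stayed between 0.433 and 1.09. The late stage-5 axis includes presumptive mesoderm at its anterior end, and the stage-7 axis is of ectoderm.

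At late stage 5 the markers fell into other combinations. Of the 16 clusters of nuclei, cluster 12 (194 nuclei), led by LOC107455093, LOC107455595 and LOC122270388, had *At_eW_012_A08* at 42.3 (41.3 to 43.3) in every nucleus and LOC107436131 at 3.39 (3.11 to 3.70). Cluster 13 (130 nuclei), led by LOC107447831, LOC107456581 and LOC107446119, had *At_eW_012_A08* at 18.8 (17.9 to 19.7) and LOC107436131 at 3.29 (2.92 to 3.69). The 2 clusters thus differed in *At_eW_012_A08* but not, beyond their intervals, in LOC107436131. Cluster 14 (25 nuclei), with *Pt-ets4* at 36.6, a gene the study used for the cumulus mesenchyme cells that induce dorsal fates, had *At_eW_012_A08* at 17.9, in 24 of 25 nuclei, and LOC107436131 at 0.512 (0.234 to 0.972). LOC107443634 was at 20.7 in cluster 12 and 1.73 in cluster 13.

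*At_eW_012_A08* and LOC107436131 stood higher in these 3 clusters together than in clusters 12, 16 and 19 of stage 7 together. The clusters of the 2 stages were not matched to each other. The stage-7 set includes cluster 16, the highest in *Pt-gata1*, whereas the late stage-5 set leaves out the *Pt-gata1*-rich cluster 7 (291 nuclei) described below. The shares and levels that follow depend on this choice of clusters. The 3 clusters were 7.24% (6.53 to 8.01) of the late stage-5 nuclei, against 9.65% (8.93 to 10.4) for those of stage 7, and their levels were 32.7 and 16.03 molecules per 10000 for *At_eW_012_A08* and 3.17 and 1.11 for LOC107436131. LOC107439300 went the other way, at 0.148 and 2.35. Cluster 13 had its highest level at late stage 5, 0.268 (0.172 to 0.399) in 15 of 130 nuclei, and no nucleus of that stage had 5 molecules of it.

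*Pt-gata1* was apart from *At_eW_012_A08* at late stage 5. Cluster 7 (291 nuclei), led by *Pt-noggin-D* at 6.01 and by LOC107450977 and LOC107450980, had *Pt-gata1* at 31.1 (30.2 to 32.0) in 280 of its nuclei and held 54.8% of its molecules. *At_eW_012_A08* was at 0.795 (0.664 to 0.945) there, and this interval overlapped that of the axis nuclei, given below. *Pt-gata1* was next at 5.08 (4.74 to 5.45) in the *Pt-twist* cluster 8. *Pt-tlx* had no molecule in cluster 7, which allows a level of up to 0.0227. Its 37 molecules were spread over the library, and no cluster stood above its neighbours beyond the intervals, with a highest level of 0.0306 (0.0112 to 0.0667) in cluster 5.

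**Figure D5:**
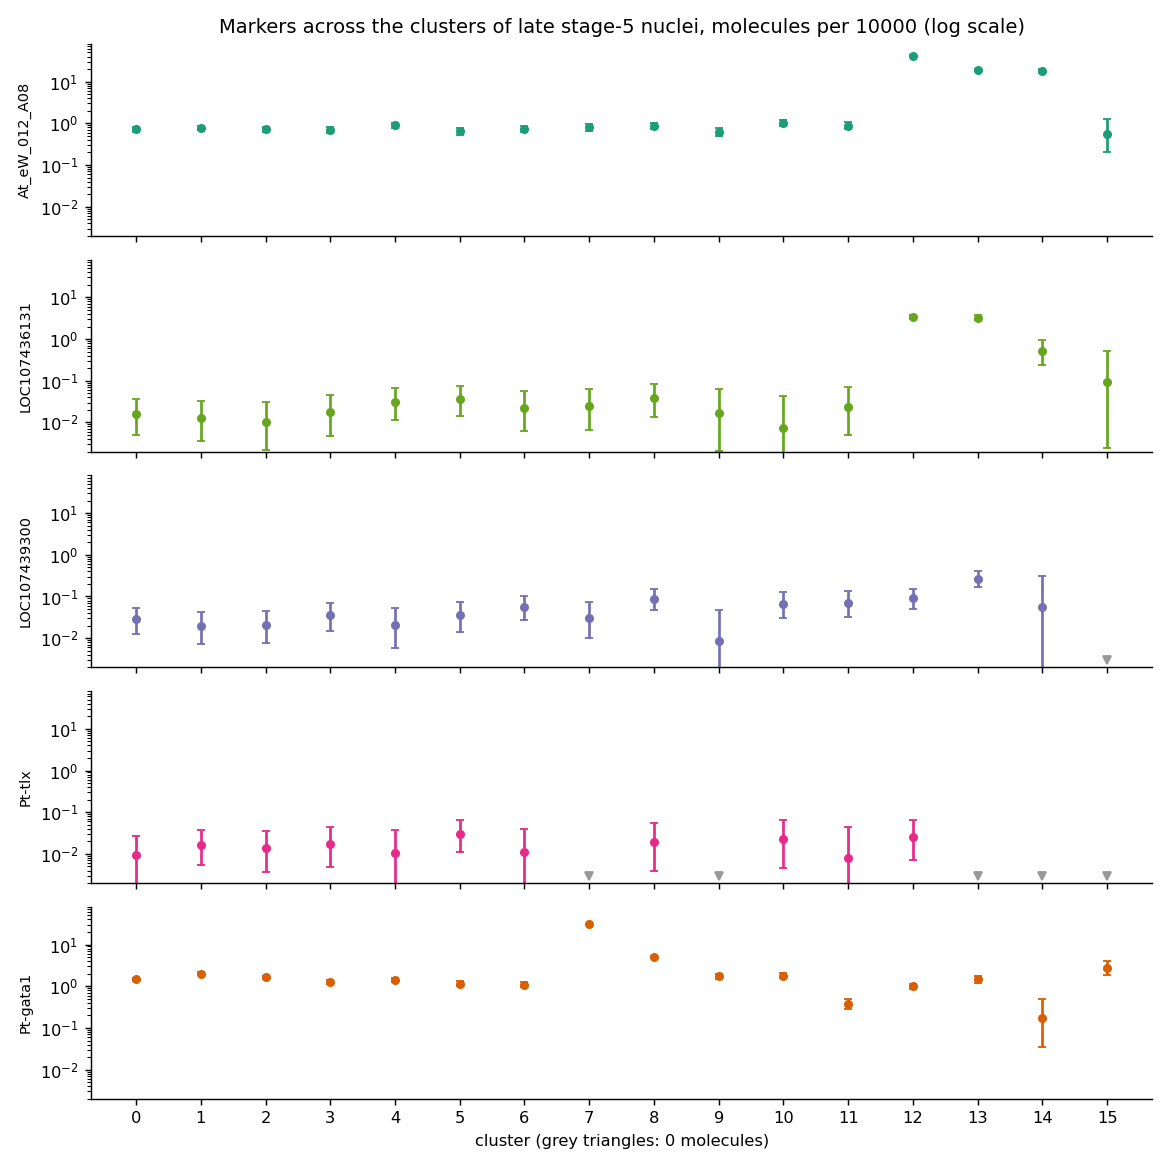
Level of each marker (molecules per 10000, log axis, exact 95% Poisson intervals) in the 16 clusters of late stage-5 nuclei, made without the markers; triangles mark 0 molecules. *At_eW_012_A08* was high in clusters 12, 13 and 14 and *Pt-gata1* in cluster 7, and *Pt-tlx* reached at most 0.0306.

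At late stage 5 *Pt-gata1* was detected no more often, beyond the interval, in nuclei with *Pt-tlx* than in the others. *Pt-tlx* was too scarce there to show whether the pair exists, with 2 molecules in only 1 nucleus. Of 36 nuclei with *Pt-tlx*, 10 had *Pt-gata1* (27.8%, 14.2 to 45.2), against 28.2% of the others. LOC107436131 and *At_eW_012_A08* were already tied, with 269 of 305 nuclei with LOC107436131 also carrying *At_eW_012_A08* (88.2%, 84.0 to 91.6) against 30.9% of the others. For the background at late stage 5 the 1140 nuclei with an axis position (23.7% of the library) were taken, since the cluster rule used at stage 7 left out clusters 10 and 11. This number is slightly above the one in the study's text. Of the nuclei of those clusters 50.2% and 55.4% were on the axis, and their summed mesoderm genes, 0.196 (0.128 to 0.287) and 0.197 (0.127 to 0.291), were not apart from the 0.191 (0.175 to 0.208) of the library. The axis nuclei also include 69.4% of the nuclei of the *Pt-twist* cluster 8, so they are not ectoderm alone. *At_eW_012_A08* was detected in 32.1% (29.4 to 34.9) of the axis nuclei, or 19.5% after thinning, at 0.853 (0.781 to 0.930). LOC107436131 was detected in 1.4% (0.804 to 2.27) of them, LOC107439300 in 2.11% (1.35 to 3.12), *Pt-tlx* in 0.526% (0.193 to 1.14) and *Pt-gata1* in 25.1% (22.6 to 27.7).

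The comparison of cells with nuclei asks which markers a preparation of whole cells still shows. All 5 genes were at least 2-fold higher in stage-7 nuclei than in stage-7 cells, against 48.5% of 13342 genes, and none was 2-fold lower, against 2.35%. The ratio was 10.5 (9.07 to 12.2) for *At_eW_012_A08*, 18.6 (8.51 to 50.8) for *Pt-tlx* and 4.75 (4.37 to 5.18) for *Pt-gata1*, and the median gene stood at 1.93. LOC107436131 at 2.90 (2.21 to 3.88) and LOC107439300 at 2.39 (1.97 to 2.92) were nearer that median. Taking the mean of the levels of single barcodes, 3 of the 5 were at 2-fold or more, because LOC107436131 came to 0.80 and LOC107439300 to 0.98 on the log2 scale. Intronic reads were counted for nuclei only. The embryos came from different egg sacs, and the study describes those used for cells as slightly younger. The preparation cannot be told apart from these differences or from the library.

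In cells, 1 cluster of 6 carried the set. Cluster 5 (81 cells, 9.36%), led by LOC107454178, LOC107443697 and LOC107448180, had *At_eW_012_A08* at 1.64 (1.34 to 1.97), LOC107436131 at 0.684 (0.501 to 0.913), LOC107439300 at 1.41 (1.14 to 1.73) and *Pt-gata1* at 1.92 (1.60 to 2.28). It held all 11 cells with 2 molecules or more of LOC107436131 and all 21 of LOC107439300. *Pt-gata1* was no lower, beyond the intervals, in cluster 4, at 1.81 (1.55 to 2.10), where *Pt-twist* was at 1.76. Within cluster 5 the nuclear combinations could not be told apart, and *Pt-tlx* had 1 molecule in it. In 603 ectodermal cells *At_eW_012_A08* was detected in 7.96% (5.93 to 10.4), or 2.99% after thinning, against 15.2% of ectodermal nuclei after thinning.

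At stage 7, nuclei rich in *At_eW_012_A08*, LOC107436131 or LOC107439300 were low in the listed ectoderm genes. The 452 nuclei with 5 molecules or more of *At_eW_012_A08* had the 8 ectoderm genes of the list at 1.33 (1.24 to 1.42) in sum, against 10.5 (10.4 to 10.6) in nuclei with none, and the 5 mesoderm genes at 0.13 (0.10 to 0.16) against 0.70. The 61 nuclei rich in LOC107436131 had the ectoderm genes at 0.779 (0.607 to 0.984), and the 169 rich in LOC107439300 at 1.12 (0.99 to 1.27). The 60 rich in *Pt-tlx* had them at 5.99 (5.41 to 6.61), and the 846 rich in *Pt-gata1* at 9.83 (9.64 to 10.0), against 9.54 (9.44 to 9.63) in nuclei without *Pt-gata1*. At late stage 5 the sum was lower in the 499 nuclei rich in *Pt-gata1*, at 16.04 (15.6 to 16.5), than in nuclei without it, at 20.1 (19.9 to 20.3).

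The genes whose levels ran most alike over the 26 clusters of stage-7 nuclei were taken from 11781 with at least 100 molecules. Those of 4 markers were highest in the same cluster as the marker, and those of *Pt-gata1* in cluster 23, where the marker itself came after cluster 16. For *At_eW_012_A08* they were LOC122269578, LOC107443633 and LOC107445388 (Pearson r 0.98 for each, over 26 clusters of 1 library, on log2 levels). For LOC107436131 they were LOC107455614, LOC107437856 and LOC107455003 (0.99, 0.98 and 0.98), and for LOC107439300 LOC107455432, LOC107454471 and LOC107453365 (0.98, 0.97 and 0.97). Those of *Pt-tlx* were LOC107454257, LOC107456430 and LOC107446902 (0.93, 0.92 and 0.92). *Pt-gata1* had no gene as close, with LOC107450977 at 0.89, LOC107450980 at 0.82 and LOC107453177 at 0.81, and the first 2 of these were also the genes that followed *Pt-noggin-D* in cluster 7 of late stage 5.

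Another gene of the GATA family, LOC107439682, is named GATA-4 in the study's tables. LOC107439682 was at 1.50 (1.46 to 1.55) molecules per 10000 at late stage 5 and at 0.572 (0.554 to 0.590) in stage-7 nuclei. It was highest in cluster 12 at stage 7, at 3.97 (3.76 to 4.2), and in cluster 14 at late stage 5, at 12.7 (11.1 to 14.5), with 0.0805 (0.0725 to 0.0891) in stage-7 ectoderm. At stage 7 it was thus highest in the cluster richest in *At_eW_012_A08*, where *Pt-gata1* was at 0.49, but at late stage 5 *At_eW_012_A08* was highest in cluster 12. A fork head domain gene, LOC107452205, listed as FD5-like, was highest in ectodermal cluster 1 of stage 7, at 0.850 (0.774 to 0.931).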

How the data were processed

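The authors prepared the libraries with the BD Rhapsody whole-transcriptome kit, aligned reads to assembly Ptep_3.0 with STAR 2.5.2b through the BD Rhapsody pipeline, and deposited counts of molecules per gene and barcode, before and after their filter. For nuclei their annotation was changed so that intronic reads were counted. The authors kept barcodes with more than 1500 (cells and late stage-5 nuclei) or 2000 (stage-7 nuclei) genes and fewer than 20000 molecules (15000 at late stage 5), and doublets were treated only by that upper limit. Their log-normalized files were not used.

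From the deposited counts, levels were summed over barcodes and scaled to 10000 molecules. Intervals were exact. Barcodes were thinned to 3000 molecules at random with a fixed seed. Clusters were made with Seurat 5.3.0 in R 4.3.3 (2000 variable features chosen without the 5 genes; 50 principal components and resolutions of 2.5 and 0.5 at stage 7, 45 and 1.4 at late stage 5). The study used Seurat 4.1.1, so cluster membership may differ from it for that reason. Ectodermal clusters of stage-7 nuclei had at least 10% of nuclei with an axis position, taken from the study's supplementary data, and summed mesoderm genes below the library level. For late stage-5 nuclei the axis nuclei themselves were taken. The last condition, the choice for late stage 5 and the rule for cells (also at least 50% of the library level of the ectoderm genes), were set after values were seen, and leave out 30.3% of cells. Gene names came from the study and from the RefSeq table of CAS_Ptep_4.0, whose coordinates were not used. That table has no product names, so family members are only those named in the study. The genes named are the 5 markers, listed marker genes, the 3 leading genes (largest ratio to other barcodes, at least 100 molecules) of clusters highest in a marker, and the 3 most alike genes. The genes, lists and tests were chosen with earlier results of these data known. The ratio and interval functions were tested on simulated data. All remaining calculations ran in Python 3.11.15 (pandas 2.3.3, scipy 1.17.1, numpy 2.4.6).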

Additional observations from a re-analysis of the deposited data

Results flagged for a closer look

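The barcodes that the filter removed were outside every comparison above. At late stage 5 the deposited counts gave 325 removed barcodes, fewer than the study's text states, so this set may not be complete. In removed barcodes 3 values stood at least 2-fold above the kept barcodes with intervals that did not overlap. In the 4 late stage-5 barcodes at or over the limit of 15000 molecules, *At_eW_012_A08* was at 25.4 (21.9 to 29.3) molecules per 10000 against 3.89 in the kept nuclei, and LOC107436131 was at 1.63 (0.842 to 2.85) against 0.329. In the 55 stage-7 cells removed for too few genes, LOC107436131 was at 1.06 (0.657 to 1.62) against 0.0625 in the kept cells, with 21 molecules against 54 in all 865 kept cells. These removed cells had a median of 3829 molecules, and the part of their low depth was not tested.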

How the results depend on the processing

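No paired analysis was possible because each group was 1 library. The number of markers at least 2-fold higher in stage-7 than in late stage-5 nuclei was 2 with barcodes before the filter, with the mean of barcode levels and with thinned barcodes. At least 2-fold higher in nuclei than in cells were 5 with barcodes before the filter, 4 after thinning and 3 by the mean of barcode levels. The share of ectodermal nuclei with *At_eW_012_A08* was 13.4% at 2 molecules or more, 15.2% after thinning and 43.8% in the axis nuclei alone, and stayed within its interval with clusters at resolution 2.5 (40.8%) or made with the markers (40.4%), and, as chosen after seeing the data, in nuclei ectodermal at both resolutions (40.8%). The share of stage-7 nuclei with at least 2 markers was 11.4% at 2 molecules, 10.7% after thinning and 28.3% before the filter. All 5 markers kept their highest level in a cluster without axis nuclei under each clustering of stage-7 nuclei tried. No sign of a log2 ratio turned under these alternatives. The log2 stage ratio of *At_eW_012_A08*, −0.77, was −0.95 before the filter, −0.57 by the mean of barcode levels and −0.57 after thinning. That of *Pt-gata1*, −0.14, was −0.38, −0.06 and −0.07, and that of LOC107436131, −0.86, was −0.89, −0.60 and −0.64. All but the −0.89 lay outside the interval of the main ratio. The stage ratios of LOC107439300 and *Pt-tlx* stayed within theirs. The highest cluster level of *Pt-tlx*, 2.88, was 7.99 with another seed, 8.28 with the markers kept and 1.54 at resolution 0.5. With 1 library per condition, the spread between embryos is unknown.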

Other observations

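Across the filter at stage 7, removed barcodes with too few genes (1030 nuclei, median 4270 molecules) had 57.4 molecules of LOC107436131 and 51.4 of LOC107439300 per 100 of *At_eW_012_A08*, against 7.42 and 6.11 in kept ectodermal nuclei. The 1152 nuclei at or over 20000 molecules had *At_eW_012_A08* at 1.66 (1.62 to 1.71) and LOC107436131 at 0.156 (0.143 to 0.171) molecules per 10000. *Pt-tlx* was at 0.0497 (0.0423 to 0.0581) and *Pt-gata1* at 1.73 (1.68 to 1.77) in them. These levels were all below the kept nuclei. LOC107439300, at 0.311 (0.292 to 0.331), was within the interval of the kept nuclei.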
